A study of Macaca mulatta with 16 samples.

Results

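The proteasome subunit genes were taken as all genes whose platform symbol is PSMA, PSMB, PSMC, PSMD or PSME followed by digits only, on the human array types U133A and U133B. This gave 39 genes of the 19044 genes named on both array types, read by 63 probe sets on U133A and 10 on U133B. The arrays were hybridised with RNA of extraocular muscle, the muscles that move the eye, from adult rhesus macaques (Macaca mulatta). The 4 groups were the orbital layer (the outer layer of these muscles), the global layer (the inner layer), whole lateral rectus and whole medial rectus, each with 2 arrays of each type. The labels give no genotype, treatment or age beyond adult. Both layers were cut out by laser microdissection and their mRNA was amplified with T7 polymerase, whereas whole rectus RNA was taken through the standard array protocol without that step. Which muscle the layers came from, and whether any arrays share an animal, is not given in the sources used here, so the p-values below reflect the scatter among these arrays alone, which may be technical.

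The proteasome is the main protease of the cytosol and nucleus, and it degrades proteins tagged with ubiquitin. Its barrel-shaped core has outer rings of alpha subunits (PSMA genes), which form the gate, and inner rings of beta subunits (PSMB genes), some of which carry the proteolytic sites. The regulatory particle caps the core: a base with a ring of ATPases (PSMC genes) and ubiquitin-binding subunits unfolds the substrate, and a lid (further PSMD genes) removes the ubiquitin. Interferon induces PSMB8, PSMB9 and PSMB10, which replace the constitutive catalytic subunits PSMB5, PSMB6 and PSMB7 in the immunoproteasome, and the activator subunits PSME1 and PSME2. In skeletal muscle the proteasome is known for turnover of the contractile proteins and for its part in atrophy.

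By class, the 39 genes comprised 18 core genes (8 alpha, 4 structural beta, 3 constitutive catalytic beta and 3 inducible catalytic beta), 5 ATPases, 3 further base subunits, 6 lid subunits, 3 chaperones that help assemble the base, and 4 activators. U133A read 36 of them with probe sets annotated with that gene alone, and 15 of these genes with more than 1 such probe set. PSMA8, a germ-line variant of an alpha subunit, was read on U133B alone, and PSMA6 and PSME2 only by probe sets annotated with a second gene as well. PSMC5, PSMD7, PSMD13 and PSMB11 are not analysed here. All 39 symbols matched the macaque gene table of RefSeq (T2T-MMU8v2.0), on 16 chromosomes. In it, PSMB9 and PSMB8 are separated only by TAP1, a peptide transporter gene of antigen processing, and PSME1 and PSME2 by 1 protein-coding gene, EMC9.

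Values are intensities scaled per array to a common trimmed mean, and each gene is described by its brightest probe set unless another is named. Levels are not comparable between genes, because probe sets differ in how brightly they bind. A floor of 146.5 units on U133A and 218.5 on U133B was set before taking log2. Probe sets were kept where the mean of these log2 values over the compared arrays reached the log2 of 653.9 or 802.7 units. Of the 63 U133A probe sets, 57 lay above the floor on every array and 1, of PSMD4, lay at or below it on every array; on U133B, 5 of 10 lay above it on every array. Each comparison was tested with limma, with Benjamini-Hochberg adjustment over all kept probe sets of an array type and a threshold of 0.05.

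Some quality measures differed between the groups. For ACTB, the signal of the 3′ probe set over that of the 5′ probe set was 2.84 to 5.87 on the layer arrays and 0.716 to 1.04 on the whole muscle arrays of U133A, and within the layers 5.3 to 5.87 on orbital against 2.84 to 2.88 on global arrays. The same ratio for GAPDH overlapped on U133A, at 1.5 to 2.92 on the layer and 0.947 to 1.66 on the whole muscle arrays. Within the layers it was 1.73 to 2.0 on orbital and 1.5 to 2.92 on global arrays. On U133B the GAPDH ratio did not overlap, at 2.04 to 4.33 on the layer and 1.18 to 1.74 on the whole muscle arrays. The ACTB ratio there was 3.54 to 5.29 against 0.512 to 0.933. Median intensity on U133A was 476 to 588 in the layers and 788 to 852 in whole muscle. All 10 muscle fibre markers (such as ACTA1, CKM and MYH13) were kept on U133A in every comparison, none of them at the floor on every array. On U133A, the orbital layer replicate 1 array is titled orbital layer while its source name says global layer; the title was used, and results without this array are given.

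The comparison of orbital with global layer asked whether proteasome expression separates the outer from the inner layer. None of the 53 kept member probe sets on U133A passed the threshold, where 39 of 9532 probe sets did (0.409%), and none of 5 on U133B (0.021%). At an unadjusted p under 0.05, 3 member probe sets passed on U133A (PSMC6, PSMD12 and PSME3), where 9.49% of all probe sets did. Of 34 kept genes, 25 were lower and 9 higher in the orbital layer (46.0% of all kept probe sets were higher), with a median log2 difference of −0.21 against −0.04 over all kept probe sets. Both orbital arrays lay below both global arrays for 13 of the 34 genes (38.2%) and above them for none, whereas 23.4% of all probe sets lay below and 18.5% above. The median was −0.07, with 19 genes lower and 15 higher, when arrays were scaled to a common median, where that of all probe sets was 0.09. Without the orbital array whose labels disagree, no member probe set passed and the median was −0.17, with 22 genes lower and 12 higher.

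**Figure D1:**
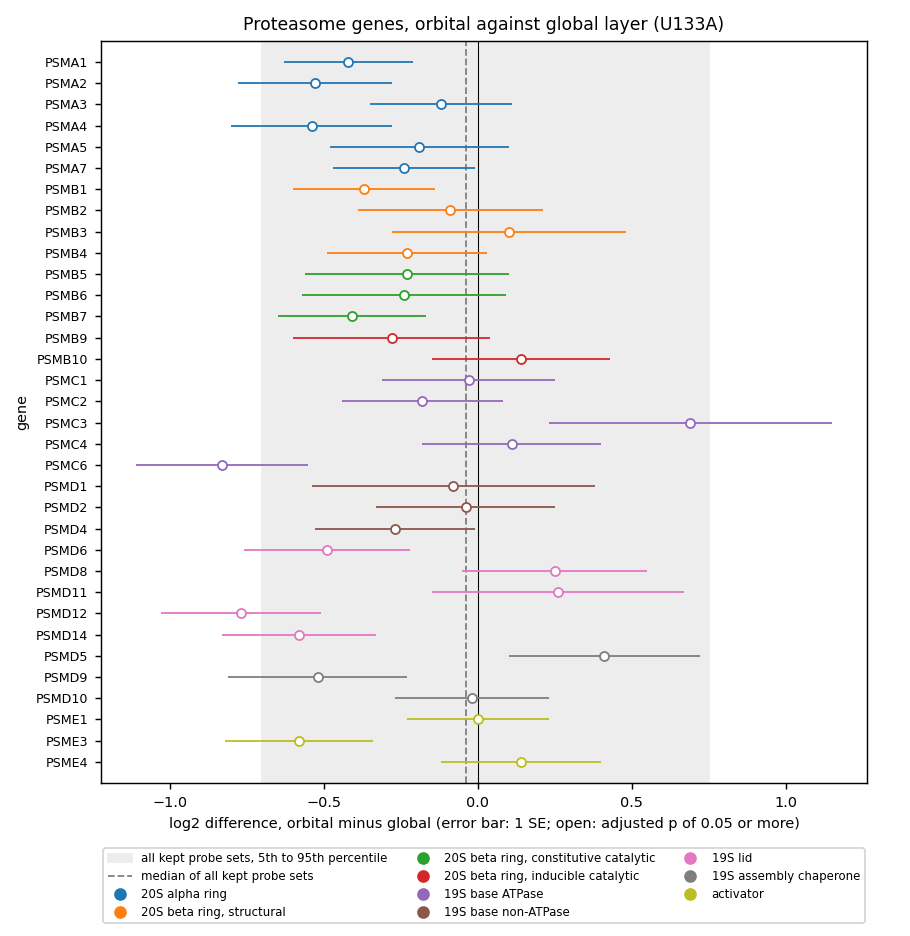
Log2 difference of each proteasome gene, orbital minus global layer, on U133A (x axis), with genes by class (y axis). Points are limma estimates from 2 arrays a layer with bars of 1 SE, the grey band spans the 5th to 95th percentile of all kept probe sets (−0.7 to 0.75), and the dashed line is their median. All points are open, since none passed; 25 of 34 lie below 0, all 6 of the alpha ring among them.

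Alpha ring genes, which encode the gate of the core, were lower in the orbital layer for all 6 kept genes, although PSMA3 was at 0.02 under median scaling. Their median log2 difference was −0.33 (range −0.54 to −0.12, adjusted p in limma 0.556 to 0.903). For 5 of 6, both orbital arrays lay below both global arrays, where 23.4% of all kept probe sets did so. PSMA3, at −0.12, was among the 5. PSMA4 was at 4191 and 3628 units on the orbital and 4893 and 6588 on the global arrays, a log2 difference of −0.54 ± 0.26 (SE). PSMA2 was at 11601 and 8651 against 13631 and 15444 (−0.53 ± 0.25). In both genes each orbital array lay below each global array, by less than the test could separate. PSMA7 differed by −0.24 ± 0.23 and PSMA5 by −0.19 ± 0.29, and the layers overlapped for PSMA5. The second PSMA7 probe set, 216088_s_at, lay in the other direction (0.11 ± 0.27), with overlap.

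Structural beta subunits had a median of −0.16 (3 of 4 lower). PSMB1 was at 7238 and 7089 on the orbital and 9689 and 8792 on global arrays (−0.37 ± 0.23), PSMB4 differed by −0.23 ± 0.26, PSMB2 by −0.09 ± 0.30 (0.04 under median scaling) and PSMB3 by 0.10 ± 0.38. A further PSMB4 probe set on U133B, 228204_at, was at 1393 and 1696 on the orbital and 7030 and 2471 on global arrays, a log2 difference of −1.44 ± 0.48 with an adjusted p of 0.537 in limma. The other PSMB4 probe set on U133A, 202243_s_at, differed by 0.15 ± 0.37, so that probe sets of this gene did not share a direction. A PSMB2 probe set that was not the brightest, 201404_x_at, was at 214 and 1689 on the orbital and 1693 and 1128 on global arrays; without orbital layer replicate 2 it passed with a log2 difference of −2.69 (adjusted p = 0.00485), so that this call rests on the single array at 214. Without global layer replicate 1, a PSMA1 probe set, 201676_x_at, passed with −1.28 (adjusted p = 0.0475), where the remaining global array was at 30973 against 13377 and 12155 on the orbital arrays.

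The constitutive catalytic subunits were lower in the orbital layer for all 3 genes, none past the threshold (adjusted p 0.619 to 0.85 in limma). PSMB7, which carries the trypsin-like site, was at 10893 and 12232 in the orbital layer and at 13566 and 17356 in the global layer, without overlap (−0.41 ± 0.24). PSMB5, the chymotrypsin-like subunit that bortezomib inhibits, was at 5123 and 5273 against 4401 and 8498 (−0.23 ± 0.33). PSMB6, the caspase-like subunit, was at 12765 and 12464 against 10583 and 20924 (−0.24 ± 0.33). For PSMB5 and PSMB6 the global arrays lay on either side of the orbital ones, and without global layer replicate 2 the differences turned to 0.24 and 0.25.

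Among the inducible catalytic subunits, PSMB9 was at 2013 and 1480 on the orbital and 2640 and 1665 on global arrays (−0.28 ± 0.32). PSMB10 was at 1743 and 1534 against 1773 and 1240 (0.14 ± 0.29), with overlap in both genes. PSMB8 was dim, at 231 and 674 on the orbital and 393 and 397 on global arrays, and was not kept for the test.

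**Figure D2:**
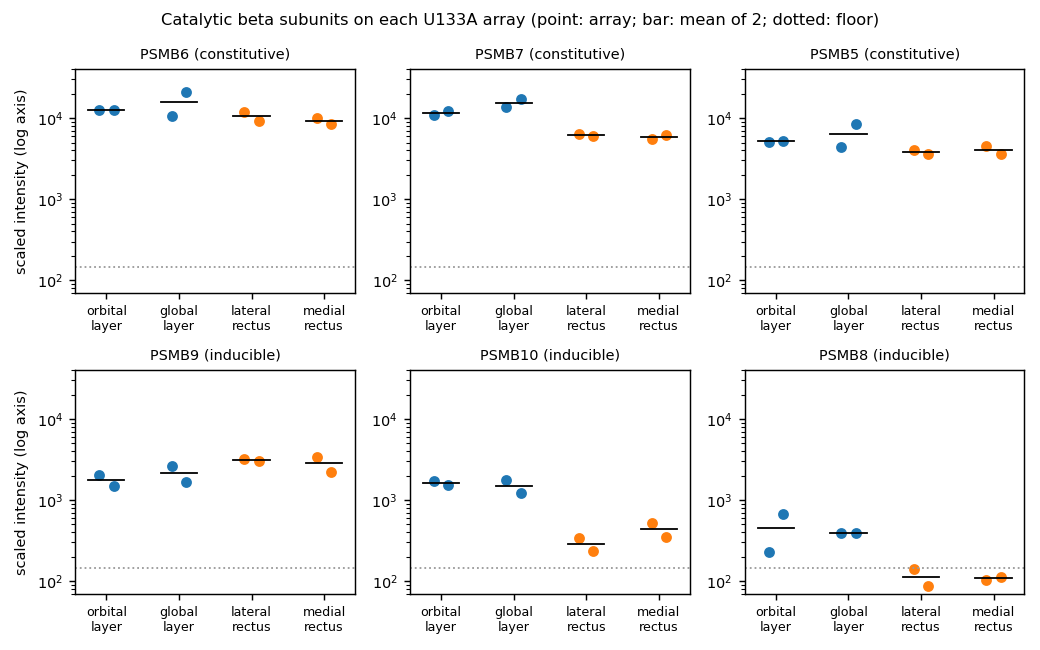
Scaled intensity (log axis) of the 3 constitutive and 3 inducible catalytic subunits on each U133A array, by group (x axis); points are arrays, bars the mean of 2 and the dotted line the floor of 146.5. PSMB10 is at 1240 to 1773 on the layer arrays and 234 to 524 on the whole muscle arrays, while PSMB9 is at 1480 to 2640 and 2248 to 3428.

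ATPases of the base had a median of −0.03 between layers and no shared direction. PSMC6 was at 1374 and 1023 on the orbital and 2276 and 1964 on global arrays, a log2 difference of −0.83 ± 0.28 and the smallest adjusted p among the U133A members (0.397 in limma). PSMC3 lay in the other direction, at 4427 and 6305 against 1971 and 5479 (0.69 ± 0.46), and its 2 global arrays were further apart than the layers. PSMC4, PSMC1 and PSMC2 differed by 0.11, −0.03 and −0.18. The 3 other base subunits, PSMD1 and PSMD2 (the large scaffolds) and PSMD4 (a ubiquitin receptor), differed by −0.08, −0.04 and −0.27, with overlap in each.

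Lid genes had the lowest class median, −0.49 over 5 kept genes, and divided by gene. PSMD12 was at 2875 and 2302 on the orbital and 4725 and 4057 on global arrays (−0.77 ± 0.26, adjusted p = 0.402 in limma); its second probe set was at 1752 and 2065 against 3069 and 2645 (−0.58 ± 0.26). PSMD14, the deubiquitinase that strips ubiquitin from the substrate, was at 8196 and 5895 against 10631 and 10213 (−0.58 ± 0.25). PSMD6 differed by −0.49 ± 0.27, also without overlap. PSMD11 was at 7974 and 9852 against 4661 and 11833 (0.26 ± 0.41, and −0.42 without global layer replicate 1) and PSMD8 at 4765 and 4272 against 2975 and 4811 (0.25 ± 0.30), both with overlap. PSMD3 was too dim in the layers to be tested there.

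Of the base chaperones, PSMD5 was at 1499 and 1839 on the orbital and 1006 and 1559 on global arrays (0.41 ± 0.31), PSMD9 differed by −0.52 ± 0.29 without overlap, and PSMD10 by −0.02 ± 0.25. Of the activators, PSME3, the nuclear proteasome activator, was at 3867 and 3850 against 5315 and 6246 (−0.58 ± 0.24, adjusted p = 0.51 in limma). PSME4, an activator known for the degradation of acetylated histones, was at 7095 and 10042 against 7352 and 7971 (0.14 ± 0.26). PSME1, a subunit of the interferon-induced activator, was at 6850 and 6945 against 6945 and 6843 (0.00 ± 0.23). The 4 values of PSME1 differ by less than those of any other activator, and the probe set annotated with MIR7703 and PSME2 was at 8256 and 6375 against 7785 and 6300.

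Genes that build and serve the proteasome were looked at as fixed lists. Of 12 kept assembly and regulation genes on U133A, 10 were lower and 2 higher in the orbital layer and none passed (median −0.31). Over all kept probe sets, 46.0% were higher. POMP, the chaperone that matures the core, was at 4629 ± 338 (SD, n = 2) units in the orbital and 6960 ± 937 in the global layer (−0.58 ± 0.25, adjusted p = 0.512 in limma), and on U133B at 1518 ± 32.5 against 2492 ± 791 (−0.68 ± 0.35). PSMG2, a chaperone of the alpha ring, differed by −0.46 ± 0.25 and USP14, a deubiquitinase bound to the base, by −0.40 ± 0.26. For 5 of the 12 genes (POMP, PSMG2, SEM1, USP14 and TXNL1), both orbital arrays lay below both global arrays on U133A, where 23.4% of all kept probe sets did so. NFE2L1, the transcription factor that induces proteasome genes, differed by 0.28 ± 0.28 with overlap. Of 9 ubiquitin supply and shuttle genes, 6 were lower and 3 higher, and of 7 interferon and class I genes 4 and 3. Endothelial markers summed to 14819 to 14851 units on the orbital and 18703 to 20918 on global arrays, fibroblast markers to 227973 to 260137 against 193232 to 195412, smooth muscle and pericyte markers to 44967 to 47296 against 38337 to 39616, and muscle fibre markers to 623662 to 656712 against 620765 to 743668. Leukocyte markers on U133A summed to 7641 to 8636 units on the orbital and 7023 to 7572 on global arrays, with 5 of 7 kept markers higher and 2 lower. The part of these shifts, and of the ACTB ratio, in the proteasome values was not tested. In bulk samples, fewer cells of a type and less RNA per cell cannot be told apart.

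The comparison of medial with lateral rectus asked whether muscles that turn the eye in opposite directions differ. None of 54 kept member probe sets passed on U133A and none of 7 on U133B, as over all probe sets on both (0.0%). At an unadjusted p under 0.05, 2 member probe sets passed on U133A (PSMD4 210460_s_at and PSMB2 201404_x_at), where 2.8% of all did. The median over 34 genes was −0.09 against 0.00 over all kept probe sets, with 23 genes lower and 11 higher in medial rectus (50.5% of all probe sets were higher). The groups did not overlap for 4 genes with medial rectus above (11.8%, background 15.0%) and 6 with it below (17.6%, background 13.6%). Log2 differences ranged from −0.68 to 0.77.

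PSMC4 was at 1567 and 1736 on medial and 683 and 1366 on lateral arrays (log2 difference 0.77 ± 0.43), and PSMC3 at 1674 and 4237 against 3569 and 5075 (−0.68 ± 0.43). PSMD8 was at 1341 and 1943 against 2896 and 2269 (−0.67 ± 0.32), PSMC6 at 1090 and 520 against 856 and 1517 (−0.60 ± 0.56), and PSMB1 at 4242 and 3198 against 5782 and 4371 (−0.45 ± 0.27). On the log2 scale, the medial arrays of PSMC3 and the lateral arrays of PSMC4 lay further apart than the muscles did. In PSMC6 this held for the arrays of both muscles. PSMD5 was at 1428 and 1326 against 1045 and 1052 (0.39 ± 0.36), PSMD9 at 1317 and 1164 against 889 and 1010 (0.39 ± 0.40) and PSMD6 at 4719 and 7340 against 4862 and 4647 (0.31 ± 0.27). The medial arrays of PSMD6 also lay further apart than the muscles. All adjusted p-values of these genes were 0.999 in limma.

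The catalytic subunits that could be tested differed by less than 1 SE between the rectus muscles. PSMB5 was at 4552 and 3597 on medial and 4028 and 3591 on lateral arrays (0.09 ± 0.25), PSMB6 at 10012 and 8452 against 11871 and 9302 (−0.19 ± 0.22) and PSMB7 at 5493 and 6227 against 6349 and 5986 (−0.08 ± 0.21). PSMB9 was at 3428 and 2248 against 3186 and 3028 (−0.16 ± 0.29). PSMB10 was at 524 and 352 against 336 and 234 and fell under the level needed for a test, as did PSMB8, at or below the floor on all 4 whole muscle arrays. The activators PSME1, PSME3 and PSME4 differed by 0.04, −0.06 and −0.24. On U133B, PSMA8 was at 1925 and 1420 on medial and 810 and 1269 on lateral arrays (0.71 ± 0.61), PSMB4 differed by −0.56 ± 0.37, and PSMC2 by 1.24 ± 0.99 with 1 lateral array, at 189, below the floor. None of the assembly, ubiquitin or interferon genes passed; the ubiquitin gene UBB was at 78890 ± 82027 (SD, n = 2) on medial and 24444 ± 7915 on lateral arrays. On U133A, red blood cell markers summed to 9022 to 12995 units in medial and 26117 to 32951 in lateral rectus. All 10 muscle fibre markers were lower in medial rectus, with sums of 654417 to 709833 against 746998 to 825348, as were all 5 kept endothelial markers (16927 to 23336 against 20439 to 24458) and all 5 kept smooth muscle and pericyte markers (23985 to 35858 against 33139 to 36000). The part of these shifts in the proteasome values was not tested.

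The comparison of both layers with whole muscle shows how far the proteasome genes move with the dissection and its protocol. In it, amplification, microdissection and tissue content cannot be told apart, and the ACTB ratio and median intensity given above separate the same arrays. On U133A, 30 of 54 kept member probe sets passed (55.6%, background 48.7%), 23 higher in the layers (42.6%, background 18.6%) and 7 lower (13.0%, background 30.1%). Of 35 kept genes, 30 were higher and 5 lower in the layers (42.7% of all probe sets were higher); 15 passed as higher and 3 as lower, with a median log2 difference of 0.54 against −0.18 over all kept probe sets. Quantile normalization gave 20 higher and 5 lower member probe sets, with a median of 0.37 against 0.00 over all (background 19.7% higher and 19.4% lower). Scaling to a common median gave 44 higher and 2 lower, with a median of 1.17 against 0.46 (background 41.5% and 10.3%). The members' median lay 0.71 above that of all probe sets with trimmed mean scaling and with median scaling, and 0.37 above it under quantile normalization. Trimmed mean and median scaling each multiply all values of an array by the same factor, so their equal distance was fixed by the method. Median scaling moved the median of all probe sets from −0.18 to 0.46. For genes higher in the layers, only quantile normalization could therefore readily remove a call. Of the 18 genes past the threshold, 12 passed in the same direction under both quantile normalization and median scaling. Of these, 10 also passed with each of the 8 arrays left out in turn: PSMA1, PSMA3, PSMA7, PSMB1, PSMB4, PSMB7, PSMD4, PSMD8, PSMD14 and PSME4, all higher in the layers. PSMB10 (higher) and PSMD3 (lower) are not among the 10 because they fell under the level for testing in some of these fits. Which fits kept them depended on the group where they were bright, so these fits lend no further support to their calls. These are counts for the brightest probe set of a gene. Other probe sets of PSMB4 and PSME4 did not pass, as given with those genes. Of PSMA1, 201676_x_at did not pass (0.60 ± 0.27), and 210759_s_at lay in the other direction without passing (−0.44 ± 0.17).

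**Figure D3:**
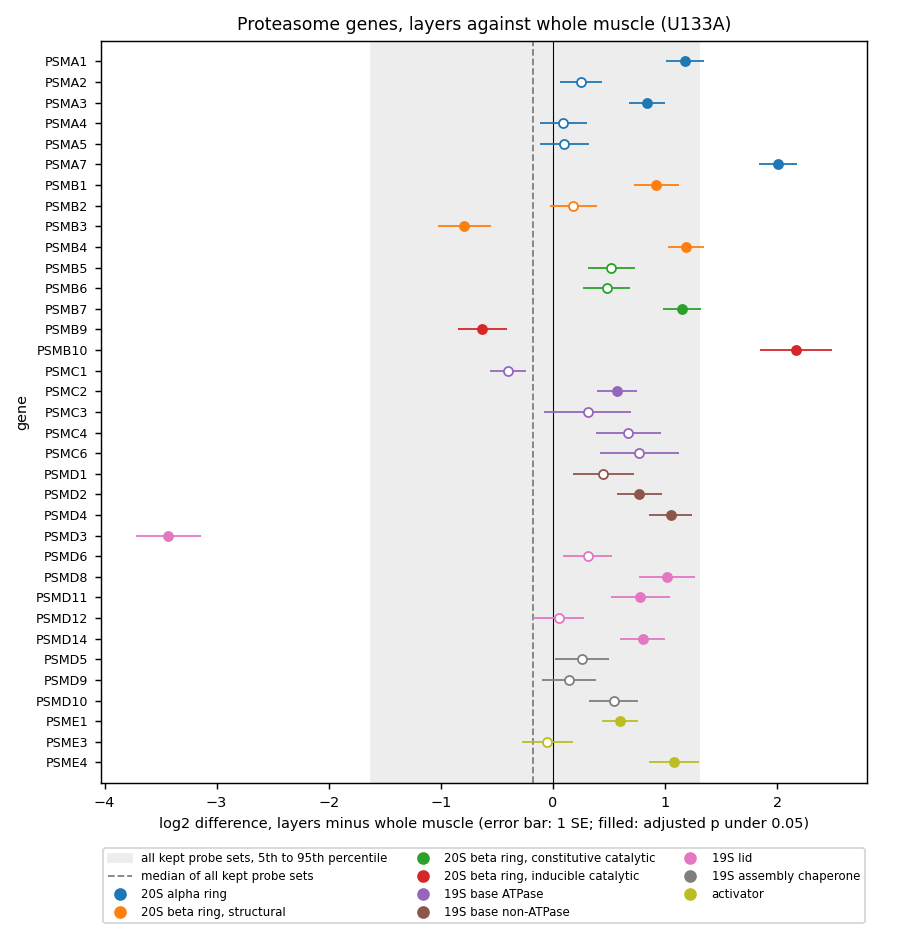
Log2 difference of each proteasome gene, layers minus whole muscle, on U133A (x axis), with genes by class (y axis). Points are limma estimates from 4 arrays a side with bars of 1 SE; filled points passed, the grey band spans the 5th to 95th percentile of all kept probe sets (−1.62 to 1.3) and the dashed line is their median of −0.18. PSMA7 and PSMB10 lie above the band and PSMD3, at −3.43, far below it.

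Core genes, the largest class with 15 kept genes, held the largest positive differences, but their class median was 0.52. The medians were 0.77 for the other base subunits, 0.60 for activators, 0.57 for ATPases, 0.55 for the lid and 0.26 for base chaperones. PSMA7, an alpha subunit, was at 8382 and 8478 on the orbital and 10436 and 9493 on global arrays, and at 2804 and 2125 on lateral and 2182 and 2071 on medial rectus arrays. The lowest layer array lay far above the highest whole muscle array, and the log2 difference was 2.01 ± 0.17 (4.02-fold, adjusted p = 1.46e-05 in limma). Its second probe set rose by less (0.74 ± 0.20). PSMA1 was at 22082, 20224, 25602 and 31189 in the layers and 10241, 12275, 9244 and 11674 in whole muscle and rose by 1.18 ± 0.17, and PSMA3 rose by 0.84 ± 0.16. PSMA2, PSMA4 and PSMA5 differed by 0.25, 0.09 and 0.10 and did not pass; under quantile normalization their signs turned (−0.24, −0.06 and −0.11). The second PSMA2 probe set, 201316_at, did rise (3957 ± 835 against 2477 ± 298 units, SD, n = 4; 0.66 ± 0.19, adjusted p = 0.0142 in limma).

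PSMB4, a structural beta subunit, was at 10802, 16038, 15199 and 15656 on the orbital and global arrays and at 6007, 6619, 5883 and 6522 on the lateral and medial rectus arrays (1.19 ± 0.16, adjusted p = 0.000217 in limma). Its second U133A probe set, 202243_s_at, did not pass (0.33 ± 0.22, adjusted p = 0.231; −0.13 under quantile normalization and 0.97 under median scaling). PSMB1 rose by 0.92 ± 0.20. PSMB3 was lower, at 1510, 2710, 1430 and 2486 in the layers against 2807, 4180, 3518 and 3164 (−0.79 ± 0.24, adjusted p = 0.0181); this call was lost under median scaling (−0.16, adjusted p = 0.654), with no filter, and without lateral rectus replicate 2 (−0.69) or orbital layer replicate 1 (−0.67).

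Among the constitutive catalytic subunits, PSMB7 rose by 1.15 ± 0.17: its layer arrays were at 10893, 12232, 13566 and 17356 and its whole muscle arrays at 6349, 5986, 5493 and 6227. PSMB5 (0.52 ± 0.21, adjusted p = 0.0565 in limma) and PSMB6 (0.48 ± 0.21, adjusted p = 0.0773) did not pass; both passed under median scaling, and PSMB6 was at −0.03 under quantile normalization.

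The inducible catalytic subunits went in opposite directions. PSMB10 was at 1743, 1534, 1773 and 1240 units in the layers and 336, 234, 524 and 352 in whole muscle (2.17 ± 0.32, 4.49-fold, adjusted p = 0.000328 in limma), and it reached the level for testing through the layers, where it was bright. With no filter on dim probe sets its adjusted p was 0.00209. PSMB9 was at 2013, 1480, 2640 and 1665 in the layers and 3186, 3028, 3428 and 2248 in whole muscle (−0.63 ± 0.22, adjusted p = 0.0343). The PSMB9 groups overlap, its call held in 2 of 8 fits with 1 array left out, those without global layer replicate 1 (−0.78) and medial rectus replicate 2 (−0.75), where all 8 ranged from −0.78 to −0.51, and under median scaling the difference was 0.01 (adjusted p = 0.974). PSMB8 was at 231, 674, 393 and 397 in the layers and 140, 88.1, 104 and 113 in whole muscle, so every layer array lay above the floor and no whole muscle array did; it was not tested.

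PSMC2 was the single ATPase that passed (0.57 ± 0.18, adjusted p = 0.0206 in limma), and under quantile normalization its difference was 0.00. The PSMC2 call was also lost without global layer replicate 2 (0.44) or medial rectus replicate 1 (0.49). PSMC6 (0.77), PSMC4 (0.67) and PSMC3 (0.31) did not pass. PSMC1, at 6434, 5898, 7799 and 5038 in the layers and 7602, 8248, 8501 and 8532 in whole muscle, differed by −0.40 ± 0.16 (adjusted p = 0.0611). It was at −0.76 with an adjusted p of 0.00451 under quantile normalization, and at 0.23 under median scaling; it also passed with array weights and without global layer replicate 1. Of the other base subunits, PSMD4 rose by 1.05 ± 0.19 and PSMD2 by 0.77 ± 0.20, while PSMD1 differed by 0.45 ± 0.27.

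The lid held a gene that was near the floor in the layers and bright in whole muscle. PSMD3, a scaffold subunit of the lid, was at 202, 173, 238 and 248 units in the layers, just above the floor, and at 2350, 2097, 2037 and 2743 in whole muscle. The log2 difference was −3.43 ± 0.29 (10.7-fold lower, adjusted p = 1.51e-05 in limma), and −2.95 and −2.79 under quantile normalization and median scaling. PSMD3 was kept through its whole muscle values; with no filter on dim probe sets the difference was the same and its adjusted p 0.000268. When 1 whole muscle array was left out it fell under the level for testing, whereas in the 4 fits without 1 layer array it was at −3.5 to −3.33. The other lid genes did not follow it: PSMD8 rose by 1.02 ± 0.25, PSMD14 by 0.80 ± 0.20 and PSMD11 by 0.78 ± 0.26 (not under quantile normalization, adjusted p = 0.118), and PSMD6 and PSMD12 differed by 0.31 and 0.05. The PSMD11 call was lost without global layer replicate 2 (0.60), orbital layer replicate 2 (0.69), medial rectus replicate 1 (0.68) or medial rectus replicate 2 (0.74). The base chaperones PSMD10, PSMD5 and PSMD9 differed by 0.54, 0.26 and 0.14 without passing.

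Of the activators, PSME4 was at 7095, 10042, 7352 and 7971 in the layers and 5702, 2991, 3259 and 3777 in whole muscle (1.08 ± 0.22, adjusted p = 0.00186 in limma). Of its other probe sets, 212219_at did not pass (0.30 ± 0.26), and 212220_at, too dim to be kept, was at 288, 290, 253 and 296 in the layers and 431, 989, 892 and 1102 in whole muscle, with every layer array lower. PSME1 was at 6850, 6945, 6945 and 6843 against 5477, 3659, 4462 and 4772 (0.60 ± 0.16, adjusted p = 0.00935; 0.104 under quantile normalization), and the probe set annotated with MIR7703 and PSME2 rose by 0.89 ± 0.18. The layer arrays of PSME1 lay much closer together than its whole muscle arrays. PSME3 was at 3867, 3850, 5315 and 6246 against 4005, 6176, 3834 and 5936 (−0.05 ± 0.23); under median scaling the difference was 0.59 (adjusted p = 0.0434).

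**Figure D4:**
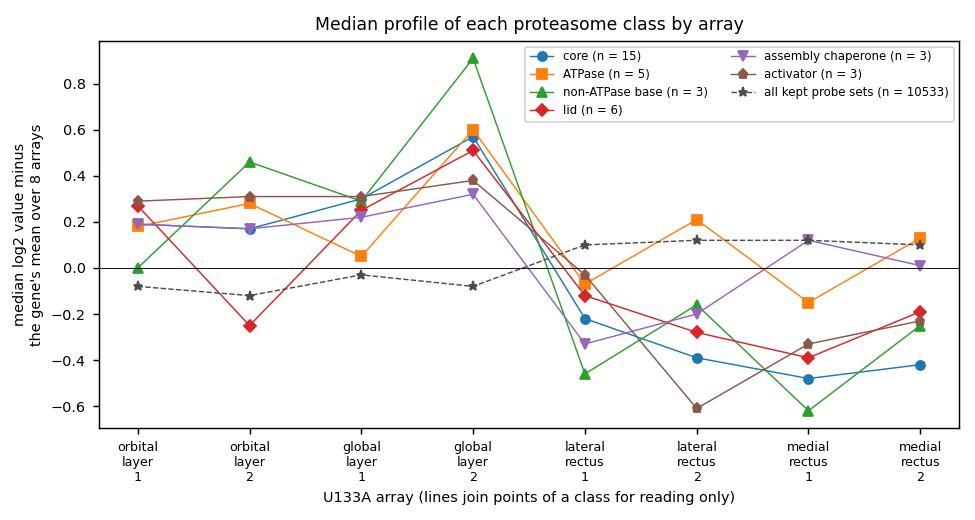
Median over the genes of each proteasome class of the log2 value minus the gene's mean over the 8 U133A arrays (y axis), by array (x axis); the dashed line is the same for all 10533 kept probe sets. Core medians are 0.17 to 0.57 on the layer arrays and −0.48 to −0.22 on the whole muscle arrays, where all probe sets are at −0.12 to −0.03 and 0.1 to 0.12.

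By array, the core class had medians of 0.19 and 0.17 on the orbital, 0.30 and 0.57 on the global, −0.22 and −0.39 on the lateral and −0.48 and −0.42 on the medial rectus arrays, as log2 distance from each gene's mean over the 8 arrays. Global layer replicate 2 was the highest array for the core, ATPase, other base, lid, chaperone and activator classes alike (0.32 to 0.91), and without it, 20 genes were lower and 14 higher in the orbital layer, with a median of −0.16. Lid genes differed between the orbital arrays, at 0.27 and −0.25. ATPases and lid genes did not separate layers from whole muscle by these medians: for ATPases lateral rectus replicate 2, at 0.21, lay above 2 of the 4 layer arrays, and for the lid orbital layer replicate 2 lay below lateral rectus replicate 1 (−0.12) and medial rectus replicate 2 (−0.19).

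Probe sets of the same gene did not always move together. Among 13 genes with more than 1 kept probe set on U133A, 4 had probe sets of opposite sign between layers and whole muscle, 6 between the layers and 8 between the rectus muscles. PSMB2 200039_s_at differed by 0.18 ± 0.21 between layers and whole muscle, whereas 201404_x_at was at 214, 1689, 1693 and 1128 in the layers and 8488, 6638, 5247 and 3968 in whole muscle (−2.68 ± 0.55, adjusted p = 0.00219 in limma). On U133B, where 200039_s_at is also present, it was at 18471, 21108, 13790 and 26152 against 10484, 11666, 12204 and 13048 (0.71 ± 0.21, adjusted p = 0.0167), the 1 call among 6 kept member probe sets there (16.7%, background 42.8%). That call was lost under quantile normalization, where the difference was −0.36 (adjusted p = 0.249), and without global layer replicate 2 (0.57). Of the other U133B genes in this comparison, PSMA8 differed by −0.84 ± 0.43, PSMB4 by −0.32 ± 0.44, PSMC2 by −0.02 ± 0.61 and PSMA3 by 0.00 ± 0.33, and the probe sets of PSMA5 and PSMB7 there were too dim in all 3 comparisons. So were both U133A probe sets annotated with C7orf25 and PSMA2.

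PSMD9 209334_s_at was lower in the layers (540 ± 118 against 1352 ± 294 units, −1.32 ± 0.29) and 207805_s_at was not past the threshold (0.14 ± 0.24). PSME3 209852_x_at was lower (−0.81 ± 0.23) beside −0.05 and 0.02 for the other 2 kept probe sets. PSMA1 210759_s_at differed by −0.44 ± 0.17 and 201676_x_at by 0.60 ± 0.27, neither past the threshold, beside the rise of 211746_x_at. The 2 probe sets annotated with PRORP and PSMA6 passed in opposite directions, 208805_at at 0.61 ± 0.19 and 202713_s_at at −0.78 ± 0.24.

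**Figure D5:**
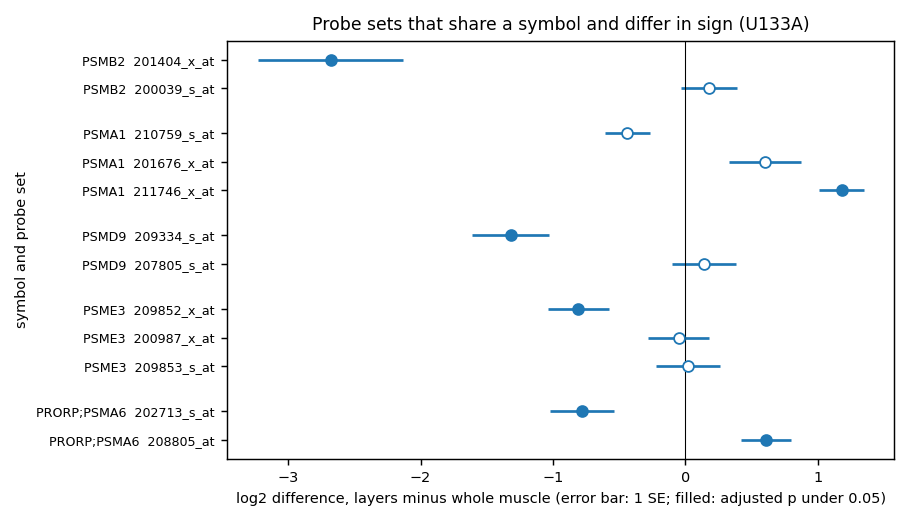
Log2 difference, layers minus whole muscle, on U133A (x axis) of the kept probe sets of symbols whose probe sets differ in sign (y axis); bars are 1 SE and filled points passed. PSMB2 spans −2.68 to 0.18 and PSMA1 −0.44 to 1.18.

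The partner genes were mixed in the same comparison, where 18.6% of all kept U133A probe sets passed as higher and 30.1% as lower. Of 12 kept assembly and regulation genes on U133A, NFE2L2 (0.85 ± 0.18), a transcription factor of the oxidative stress response, and PSMG2 (0.57 ± 0.18) were higher, and PSMF1, a proteasome inhibitor (−0.88 ± 0.18), and ADRM1, a ubiquitin receptor of the base (−0.88 ± 0.28), were lower, with adjusted p-values of 0.00232 to 0.0203 in limma. Of 9 ubiquitin supply and shuttle genes, 4 were higher past the threshold and none lower: UBQLN2 (1.55 ± 0.21), RAD23B (0.86 ± 0.20) and UBQLN4 (0.57 ± 0.21), which carry ubiquitinated proteins to the proteasome, and UBB (1.55 ± 0.48, with overlap). On U133B, 20.5% of all kept probe sets passed as higher and 22.3% as lower. There, 2 of 6 kept assembly and regulation genes, USP14 (1.21 ± 0.25) and PSMG4 (1.27 ± 0.24), passed as higher. So did 2 of 5 ubiquitin supply and shuttle genes, UBQLN1 (1.40 ± 0.20) and UBQLN2 (1.31 ± 0.38), and none of either list passed as lower. Of 7 interferon and class I genes, none was higher past the threshold and 2 were lower, a share near that of all probe sets: B2M, the light chain of class I molecules (26489 ± 12318 against 53244 ± 9039 units, −1.10 ± 0.27), and TAP2, a peptide transporter subunit (−0.90 ± 0.27). On U133A, leukocyte markers summed to 7023 to 8636 units in the layers and 8798 to 10765 in whole muscle, and muscle fibre markers to 620765 to 743668 against 654417 to 825348. Smooth muscle and pericyte markers there summed to 38337 to 47296 against 23985 to 36000, with 4 of 6 kept markers higher and 2 lower. On U133B the smooth muscle and pericyte sums went the other way, at 5286 to 6477 units in the layers and 6953 to 11168 in whole muscle. The part of these shifts in the proteasome differences was not tested.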

How the data were processed

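Per the labels, RNA of 16 samples was hybridised to human arrays, 8 of each type. The authors deposited 1 linear intensity per probe set and array; its 2% trimmed mean was 1500.2 to 1500.7 on every array, and the summary software is not given in the sources used here. Arrays were brought to one shared 2% trimmed mean, their values raised to the pooled 20th percentile, and log2 was taken; probe sets with a mean at or above the pooled median were kept and 68 control probe sets per type left out. limma 3.58.1 in R 4.3.3 (intensity trend, 2 groups, two-sided) gave log2 differences and SEs. The fits were also run on simulated data with shifts larger than any member difference between the layers, so smaller differences were not examined there. Tables and figures used Python 3.11.15, pandas 2.3.3 and matplotlib 3.10.9. The number of arrays, 2 per group and type, limits precision.

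Arrays were grouped by title; for U133B global layer replicate 1, the source name does not say which layer. On U133A, values on every array are given, for each comparison and direction, for the 4 genes with the largest difference, for the catalytic subunits and activators, and for members past the threshold between layers or between rectus muscles; of the partner lists, genes past the threshold and those with large differences are named. Members, classes and lists were chosen with earlier results of these data known. Alternatives were other scalings, floors and filters, a fit of all 4 groups together, array weights, untrended variances, the mean of a gene's probe sets, replicate numbers as a block, and each array left out. No sequences are shown.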

Additional observations from a re-analysis of the deposited data

Results flagged for a closer look

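Of 36 groups of 4 arrays examined for a gene (the layers or whole muscle on 1 array type), 2 had an array that stood apart by Dixon's test at 95%, which by chance marks about 1 in 20 groups. PSMB4 on U133A was at 10802 units on orbital layer replicate 1, the array whose title and source name disagree, while the other 3 layer arrays were at 15199 to 16038. PSMC2 on U133B was at 189 units on lateral rectus replicate 2, below the floor of 218.5, while the other 3 whole muscle arrays were at 1250 to 1342.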

How the results depend on the processing

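Between the layers on U133A, the members' median of −0.21 was −0.07 under median scaling and −0.36 to −0.16 with 1 array left out, and the count of 0 calls was 0 to 1. On U133B it was −0.07, and −0.69 with the filter at the 75th percentile and −0.41 to 0.07 with 1 array left out. Between the rectus muscles the median on U133A was −0.11 to 0.03 with 1 array left out; on U133B it was 0.19, and 0.05 under quantile normalization, −0.13 under median scaling, −0.06 with the floor at the 5th percentile, −0.18 with the 75th percentile filter, 0.01 with the mean of all probe sets and −0.13 to 0.04 with 1 array left out; the count stayed at 0 in all 13 alternatives on both types. Between layers and whole muscle on U133A, the 30 calls were 46 under median scaling, of which 25 were among the 30, and 24 to 34 with 1 array left out; the median of 0.54 was 0.37 under quantile normalization, 1.17 under median scaling and 0.44 to 0.62 with 1 array left out. On U133B the 1 call was 0 under quantile normalization and 0 to 1 with 1 array left out, and the median of −0.02 was −0.22, 0.41, −0.32 and 0.20 under quantile normalization, median scaling, the 40th percentile floor and the 75th percentile filter, and −0.39 to −0.01 with 1 array left out. Of 57 results for named genes, 27 changed sign in one or more alternatives; among the 11 past the threshold, PSMB9 did so under median scaling (0.01) and PSMB2 on U133B under quantile normalization (−0.36). The cause of these shifts was not tested. Layer arrays of the same number shared only a number (correlation of deviations 0.26 and 0.13, 2 pairs); with the replicate block, 0 member probe sets passed on either type, while calls over all probe sets were 92 and 26 against 39 and 2. Where 1 array of a group remained, it was assumed to vary like the other group. With 2 arrays a group, differences of the size seen between the layers could not be separated from the spread.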
